A study of Sus scrofa with 8 samples.

Results

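The glucocorticoid receptor and 9 genes known as its classical targets were followed in female domestic piglets, in the biceps femoris of the hind limb. The 10 genes were NR3C1, FKBP5, TSC22D3, PER1, CEBPB, CEBPD, SESN1, LPIN1, PDK4 and DUSP1. Every probe set of the porcine Affymetrix array that the platform annotation gives to one of these symbols was included, which came to 21 of 23935 probe sets and 10 of 6765 named genes. Each gene was led by its probe set of highest mean log2 level over the 8 arrays. The genes were picked from textbook knowledge of glucocorticoid action, with earlier results of these data known.

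The corticosteroid group consisted of 4 arrays, from piglets labelled as given bolus hydrocortisone over 5 days. It was set against a control group of 4 arrays, labelled as sedated and ventilated for the same time. Both groups shared isoflurane sedation with morphine and ketamine, tracheotomy and mechanical ventilation, a glucose infusion and streptomycin with benzylpenicillin, and both carry the disease label acute quadriplegic myopathy, the limb weakness seen in intensive care. The protocol text of the control samples, but not their source label, adds an infusion of endotoxin at 36 µg/kg/h for 1 h. The protocol texts give a mean body weight of 26.4 kg for corticosteroid piglets and 25.5 kg for control piglets. The series text also names the neuromuscular blocker pancuronium without saying which animals received it. Ages are not given in the labels, and no label ties an array to a single animal, so the p-values measure only the spread between these arrays, whose number limits the precision. An effect of endotoxin, or of any step done separately for the groups, cannot be told apart from that of hydrocortisone.

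Hydrocortisone is cortisol given as a drug. It binds the glucocorticoid receptor, which waits in the cytoplasm in a complex with HSP90 chaperones and immunophilins, and the bound receptor moves to the nucleus and changes the transcription of genes near its binding sites. In skeletal muscle, glucocorticoids are known for shifting fuel use from glucose towards fat and for promoting protein breakdown. Several targets act back on the pathway: FKBP5 lowers the receptor's affinity for hormone, while TSC22D3 and DUSP1 carry part of the anti-inflammatory response. Fasting, infection and the stress of critical illness raise an animal's own cortisol, so some of these genes can be active in muscle without an added steroid.

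The deposited values are log2 levels per probe set. The rows of the corticosteroid columns followed a different order from the probe IDs, and their values were re-assigned to the IDs sorted as text with full stops ignored. That order was found from the values themselves. The re-assignment moved 8 of the 21 probe sets, among them the lead probe sets of FKBP5, TSC22D3 and CEBPD. The other 13, including the lead probe sets of the other 7 genes, stand as deposited. Of the 21 probe sets, 17 lay above the filter level of 5.27 and entered the limma test. The 4 below it were 2 of NR3C1 and 1 each of PER1 and CEBPD, and their differences come from the same fit without a filter.

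Across the table, muscle markers were near the top of the scale on all arrays, with a mean log2 level over 6 markers of 13.60 to 13.76 on corticosteroid arrays and 13.20 to 13.71 on control arrays. Control replicate 2 stood apart: it was the lowest of the 8 arrays for 23.6% of the 5406 genes tested and had the lowest mean for the muscle markers (13.20). It also had the highest mean over the 3 macrophage markers measured, CD163, C1QA and AIF1, at 9.05, against 6.22 to 7.30 on corticosteroid arrays and 7.0 to 7.33 on the other control arrays. On control replicate 2 CD163 was 9.67 and AIF1 9.62, against 7.23 to 7.71 and 6.22 to 6.67 on the other controls. C1QA stood out little, at 7.85 against 7.12 to 7.75. None of these markers was at 0 on any array. Corticosteroid replicate 4 was the lowest of the 8 arrays for 18.6% of genes, and had the lowest adipocyte (7.61) and macrophage (6.22) means of all arrays. Over the 5406 genes tested, it was also most often the highest of its group (1689 genes). Control replicate 2 was likewise most often the highest of the controls (1615 genes), so both arrays were extreme in both directions. In whole muscle, fewer cells of a type and less RNA per cell cannot be told apart.

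No member differed between the groups after adjustment over all 14361 probe sets. The adjusted p in limma ran from 0.479 for PER1 to 0.967 for the second NR3C1 probe set. Of all probe sets tested, 0.0% passed. The means of 7 of the 10 lead probe sets were higher on corticosteroid arrays and those of 3 (NR3C1, PDK4 and DUSP1) were lower. The median lead difference was 0.60 on the log2 scale, and it was 0.86 when corticosteroid replicate 4 was left out and 0.32 when control replicate 2 was. Over all 5406 genes tested it was 0.029, with 54.0% of the means higher. At an unadjusted p under 0.05, 2 of the 10 lead probe sets, PER1 and CEBPB, were higher and 0 were lower. Of all probe sets tested, 4.78% were higher and 4.71% lower at that level. The groups were apart, with no overlap of their arrays, in 0 of the 17 tested member probe sets and in 5.56% of all probe sets tested. The intervals were wide, with standard errors of the lead differences from 0.23 for NR3C1 and PER1 to 1.06 for PDK4.

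**Figure D1:**
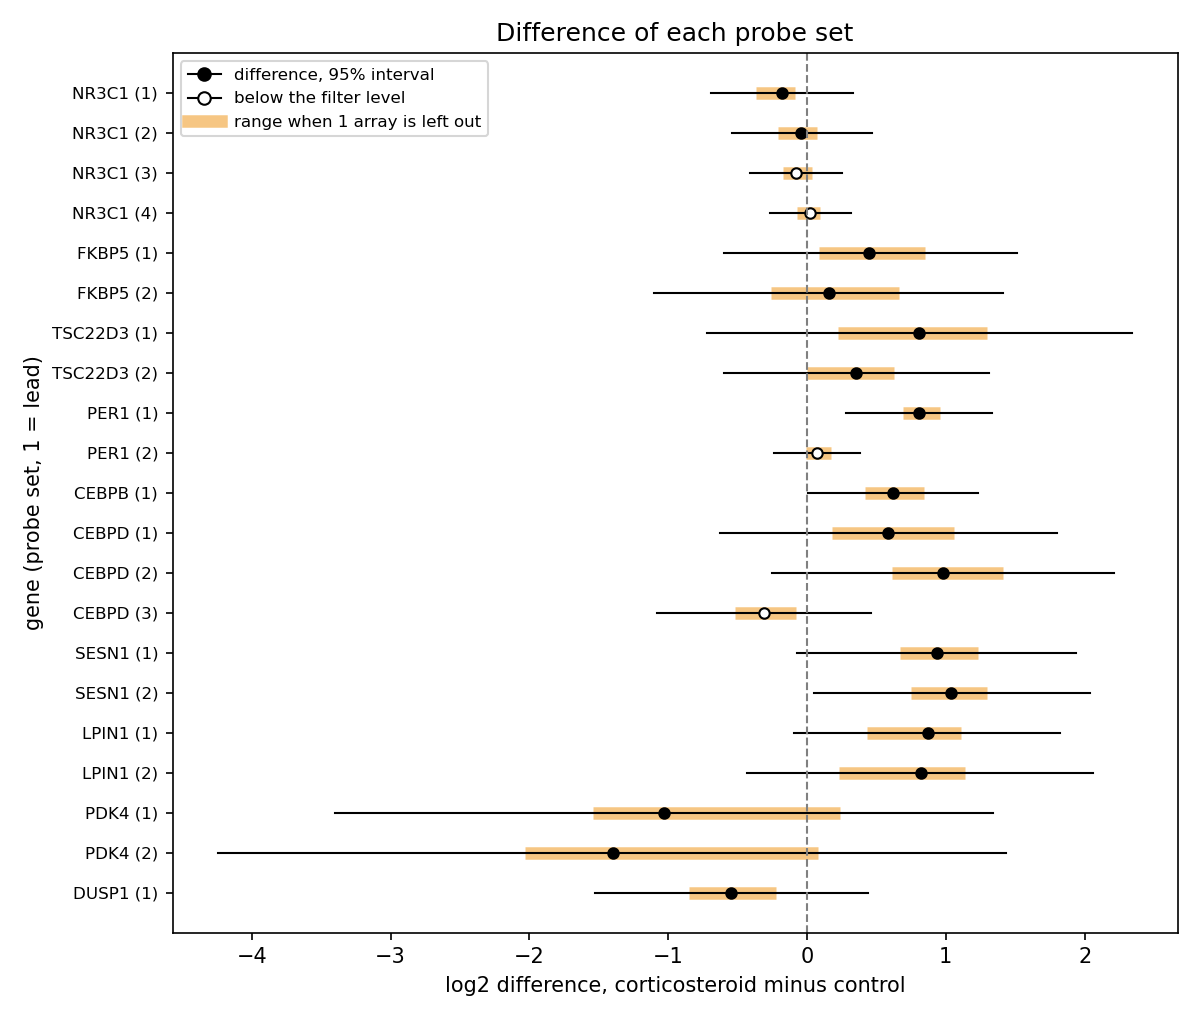
Log2 difference, corticosteroid minus control, of each of the 21 member probe sets (1 is the lead probe set of a gene). Points are limma estimates with their 95% intervals, open points lie below the filter level, and orange bars give the range when 1 array is left out. PER1 has the narrowest interval among the targets' lead probe sets, and the orange bars of PDK4 cross 0.

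The receptor itself, NR3C1 (Entrez gene 396740), differed between the groups by less than the spread between arrays. Its lead probe set had log2 levels of 7.81, 7.94, 8.65 and 7.92 on corticosteroid replicates 1 to 4, against 8.38, 8.02, 8.14 and 8.49 on control replicates 1 to 4. Corticosteroid replicate 3 was the highest of the 8 arrays, and the other 3 corticosteroid arrays lay just below every control array. The difference was -0.18 (SE 0.23, 95% interval -0.69 to 0.33, adjusted p = 0.794 in limma), and it was -0.37 when corticosteroid replicate 3 was left out and -0.088 when replicate 1 was. The second probe set averaged 7.58 ± 0.35 on corticosteroid arrays and 7.61 ± 0.27 on control arrays (SD, n = 4 each). It too was highest on corticosteroid replicate 3, at 8.10. Here the other corticosteroid arrays, at 7.37 to 7.42, were not below every control, the controls being at 7.36 to 7.95. The second probe set's difference of -0.04 had a 95% interval of -0.54 to 0.47. Neither probe set's interval thus reached a change of 1 log2 unit in either direction. The remaining NR3C1 probe sets, below the filter level, ranged over 4.02 to 4.90 on corticosteroid arrays and 4.07 to 5.27 on control arrays.

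FKBP5 (Entrez gene 100155423), the immunophilin that dampens hormone binding by the receptor, was high on 3 corticosteroid arrays and low on replicate 4. Its lead probe set read 11.15, 11.22, 11.25 and 9.62 on corticosteroid replicates 1 to 4, against 11.11, 9.26, 10.85 and 10.20 on control replicates 1 to 4. The 3 high corticosteroid arrays lay close together and above every control, but control replicate 1 came close to the lowest of them. The groups overlapped, because corticosteroid replicate 4 lay below 3 of the 4 controls. The difference was 0.45 (SE 0.47, 95% interval -0.60 to 1.51, adjusted p = 0.739 in limma). Leaving out corticosteroid replicate 4 gave 0.85, and leaving out control replicate 2 gave 0.089. The second FKBP5 probe set, whose row was not moved, had 10.52, 9.73, 10.31 and 8.18 on corticosteroid arrays and 10.22, 8.28, 9.72 and 9.88 on control arrays. Corticosteroid replicate 4 and control replicate 2 were again the low ones of their groups, and the difference was 0.16 (95% interval -1.10 to 1.41).

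TSC22D3 (Entrez gene 100517321) encodes GILZ, a leucine zipper protein that restrains inflammatory transcription factors, and it followed nearly the same array pattern as FKBP5. The lead probe set read 12.61, 12.42, 12.66 and 10.60 on corticosteroid replicates 1 to 4, against 12.36, 9.48, 12.34 and 10.86 on control replicates 1 to 4. Corticosteroid replicates 1 to 3 were above every control by a small margin. Control replicates 1 and 3 came close to these 3, whereas control replicates 2 and 4 and corticosteroid replicate 4 were lower by more than 1 log2 unit. The difference of 0.81 (SE 0.68, 95% interval -0.72 to 2.34, adjusted p = 0.683 in limma) depended on single arrays, being 1.30 when corticosteroid replicate 4 was left out and 0.22 when control replicate 2 was. The second probe set averaged 8.82 ± 0.63 with corticosteroid and 8.47 ± 0.78 in controls (SD, n = 4 each), a difference of 0.35 (95% interval -0.60 to 1.31). Control replicate 2 was the lowest control for both FKBP5 and TSC22D3. It is the array with the high macrophage marker mean (9.05) and the low muscle marker mean (13.20). The part of these in the 2 genes' levels was not tested.

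DUSP1 (Entrez gene 100522469), a phosphatase that switches off stress-activated MAP kinases, had a lower mean on corticosteroid arrays. Its 1 probe set read 10.02, 9.13, 9.06 and 8.66 on corticosteroid replicates 1 to 4, against 8.86, 10.25, 10.73 and 9.22 on control replicates 1 to 4. The highest arrays were control replicates 2 and 3, and the lowest was corticosteroid replicate 4. The difference was -0.55 (SE 0.44, 95% interval -1.53 to 0.44, adjusted p = 0.671 in limma), and it ran from -0.85 without control replicate 1 to -0.22 without control replicate 3. DUSP1 is also an immediate early gene, as are FOS and JUN. FOS read 8.03, 7.35, 6.25 and 6.42 on corticosteroid arrays and 9.58, 10.73, 7.34 and 6.08 on control arrays, and JUN differed by -0.72 (SE 0.46).

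PER1 (Entrez gene 100620648), a repressor in the circadian clock, had the smallest adjusted p of the members. The lead probe set read 10.64, 10.75, 9.99 and 10.22 on corticosteroid replicates 1 to 4, against 9.49, 9.53, 9.30 and 10.05 on control replicates 1 to 4. All 4 corticosteroid arrays lay above the control mean and 3 above every control, with an overlap only because control replicate 4 was slightly above corticosteroid replicate 3. The mean was 10.40 ± 0.36 on corticosteroid arrays and 9.59 ± 0.32 on control arrays (SD, n = 4 each), a 1.75-fold higher level with corticosteroid (log2 difference 0.81, SE 0.23, 95% interval 0.28 to 1.33). After adjustment it did not pass (adjusted p = 0.479 in limma). Leaving out any 1 array kept the difference between 0.69 and 0.96. The second PER1 probe set lay below the filter level, at 5.11 to 5.33 on corticosteroid arrays and 4.88 to 5.42 on control arrays.

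The CCAAT-enhancer binding proteins CEBPB and CEBPD, transcription factors that act early in glucocorticoid and inflammatory responses, had different patterns. CEBPB (Entrez gene 397360) read 12.01, 12.16, 11.24 and 10.91 on corticosteroid replicates 1 to 4, against 10.82, 11.14, 11.02 and 10.87 on control replicates 1 to 4. Corticosteroid replicates 1 and 2 were well above the controls, replicate 3 was just above all of them and replicate 4 lay among them. The controls were tight (SD 0.15) and the corticosteroid arrays were not (SD 0.60). The difference was 0.62 (SE 0.27, 95% interval 0.01 to 1.23, adjusted p = 0.524 in limma).

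CEBPD (Entrez gene 100153946) instead was high on corticosteroid replicates 1, 2 and 3. Its lead probe set read 12, 11.76, 12.16 and 10.05 on corticosteroid replicates 1 to 4, against 11.57, 10.74, 9.69 and 11.63 on control replicates 1 to 4. The 3 high corticosteroid arrays were above every control, control replicates 1 and 4 being close below them, and replicate 4 was below all controls but replicate 3. The difference was 0.58 (SE 0.54, 95% interval -0.63 to 1.80, adjusted p = 0.708 in limma). It was 1.06 when corticosteroid replicate 4 was left out and 0.18 when control replicate 3 was. The second probe set differed by 0.98 (SE 0.55, 95% interval -0.25 to 2.21), with 10.71, 9.90, 10.88 and 8.75 on corticosteroid arrays and 10.05, 8.76, 7.98 and 9.55 on control arrays. The third, below the filter level, differed by -0.31 (SE 0.35).

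SESN1 (Entrez gene 100523876), a stress-induced inhibitor of the growth kinase complex mTORC1, was above the control mean on all 4 corticosteroid arrays. The lead probe set read 11.05, 11.24, 11.89 and 10.50 on corticosteroid replicates 1 to 4, against 10.94, 9.47, 9.41 and 11.11 on control replicates 1 to 4. The controls fell into a high pair, replicates 1 and 4, level with the corticosteroid arrays, and a low pair, replicates 2 and 3. The difference was 0.94 (SE 0.45, 95% interval -0.07 to 1.94, adjusted p = 0.540 in limma). The second probe set gave 1.04 (SE 0.44, 95% interval 0.05 to 2.04), with the same high and low controls.

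LPIN1 (Entrez gene 100170845), a phosphatidate phosphatase that also acts as a coactivator of fat oxidation genes, likewise had all 4 corticosteroid arrays above the control mean. Its lead probe set read 9.96, 10.39, 11.10 and 10.24 on corticosteroid replicates 1 to 4, against 10.30, 8.26, 9.79 and 9.88 on control replicates 1 to 4. Control replicate 2 was the low array and corticosteroid replicate 3 the high one, and the other 6 lay between 9.79 and 10.39. The difference of 0.87 (SE 0.43, 95% interval -0.09 to 1.82, adjusted p = 0.543 in limma) was 0.43 without control replicate 2. The second probe set differed by 0.82 (SE 0.55) and was lowest on the same control array, at 7.31.

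PDK4 (Entrez gene 100286778), the kinase that blocks pyruvate dehydrogenase and so spares glucose, had the widest spread of all members, through a single array. The lead probe set read 12.59, 12.09, 12.30 and 7.27 on corticosteroid replicates 1 to 4, against 13.11, 12.03, 11.30 and 11.92 on control replicates 1 to 4. On corticosteroid replicate 4 PDK4 was 33.3-fold below the mean of the other corticosteroid arrays and 28.2-fold below the control mean. The second probe set showed the same, with 5.78 on that array against 12.10, 11.44 and 11.55 on the other corticosteroid arrays and 13.03, 11.49, 10.39 and 11.57 on control arrays. The group difference was -1.03 (SE 1.06, 95% interval -3.40 to 1.34, adjusted p = 0.738 in limma) for the lead probe set and -1.40 (SE 1.26) for the second. Without corticosteroid replicate 4 these were 0.24 and 0.077. On the remaining 7 arrays corticosteroid replicates 1 to 3 lay inside the range of the controls.

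**Figure D2:**
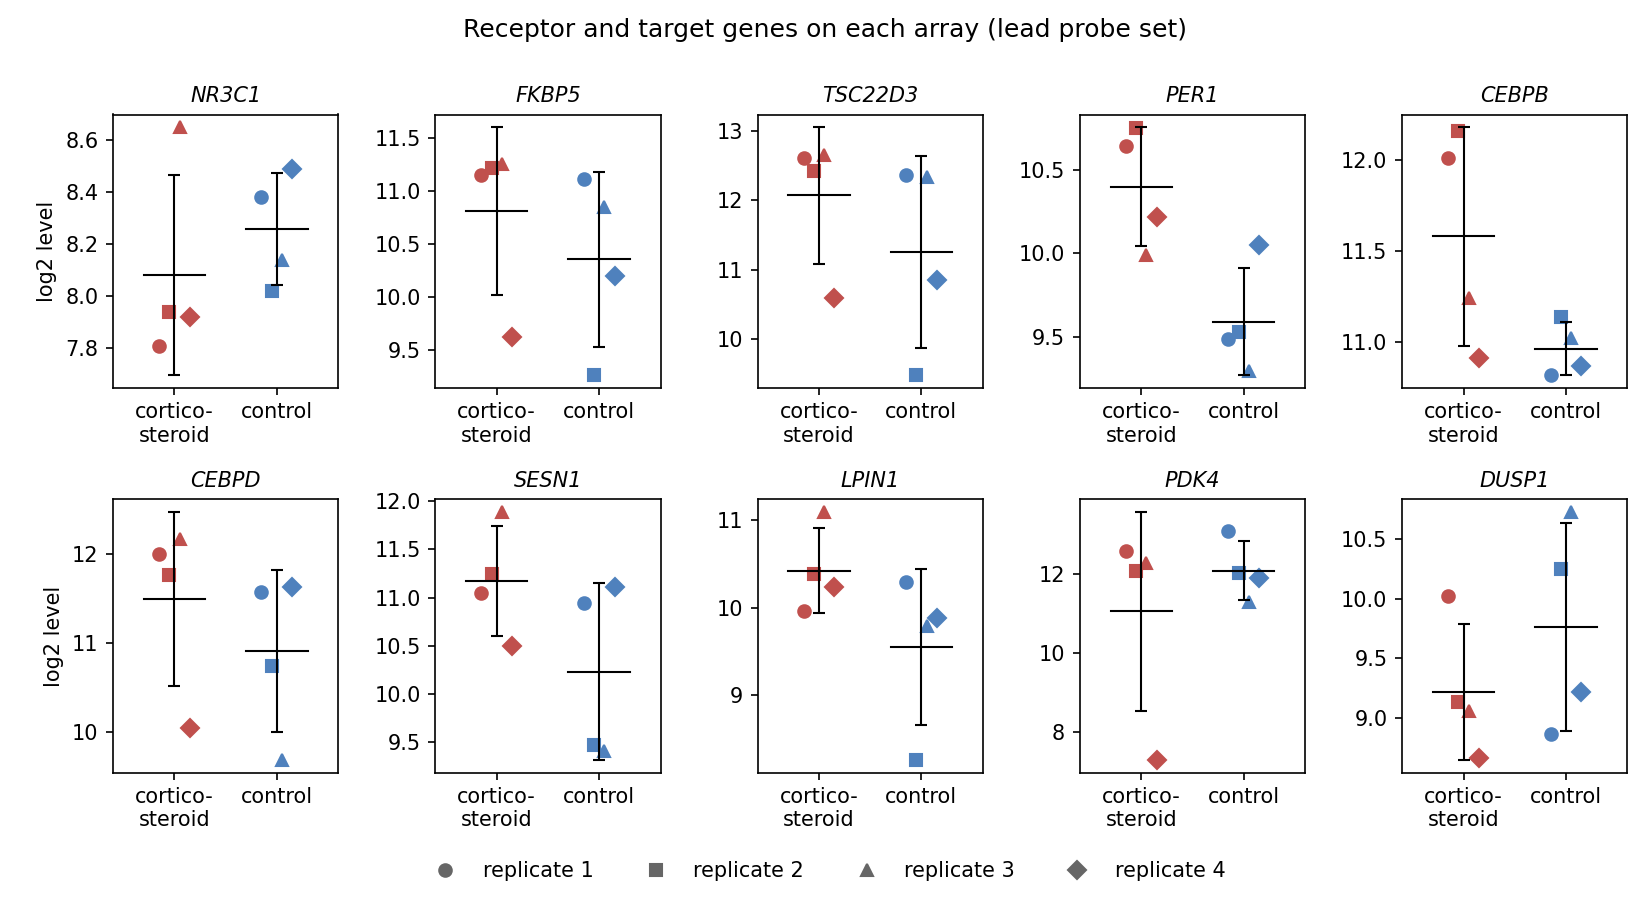
Log2 level of the lead probe set of each gene on the 4 corticosteroid arrays (red) and the 4 control arrays (blue), with marker shape for the replicate number, a line at the mean and a bar of 1 SD on each side. Corticosteroid replicate 4 (diamond) sits far below replicates 1 to 3 for FKBP5, TSC22D3, CEBPD and PDK4, at 7.27 for PDK4.

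The 4 corticosteroid arrays differed among themselves over the targets. Of the 9 targets, 9, 8 and 8 were above the control mean on corticosteroid replicates 1, 2 and 3, with median deviations from it of 0.82, 0.86 and 0.89. On corticosteroid replicate 4 only 3 were above it (PER1, SESN1 and LPIN1), with a median deviation of -0.66. That array was the lowest of the corticosteroid group for 7 of the 9 targets, all but PER1 and LPIN1, while it was the lowest for 29.3% of all genes tested. Over the 10 members, corticosteroid replicates 1 and 2 had a median absolute difference of 0.19, less than the 0.253 between them over all genes. Replicate 3 stood further off, with a median difference over the members of 0.714 from replicate 1 and 0.524 from replicate 2, against 0.272 and 0.258 over all genes. Each of the 3 pairs with replicate 4 had a median difference of 0.997 to 1.23 over the members, against 0.283 to 0.357 over all genes.

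The control arrays also spread. Their pairs had median differences of 0.383 to 1.23 over the members, against 0.264 to 0.398 over all genes. The 1.23 was between control replicates 1 and 2. The median SD of the 10 lead probe sets was 0.59 among corticosteroid arrays and 0.848 among control arrays, against 0.275 and 0.308 over all genes tested. All 10 members exceeded the median gene in their SD among corticosteroid arrays, and 8 did so among control arrays. Without corticosteroid replicate 4 the members' median SD was 0.426, against 0.230 over all genes. Among controls without replicate 2 it was 0.664, against 0.241. Different controls were low for different targets. Control replicate 2 was lowest of the controls for FKBP5, TSC22D3 and LPIN1, control replicate 3 for PER1, CEBPD, SESN1 and PDK4, and control replicate 1 for CEBPB and DUSP1. Control replicate 1 had 6 of the 9 targets above the control mean, with a median deviation of 0.70, close to those of corticosteroid replicates 1 to 3.

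**Figure D3:**
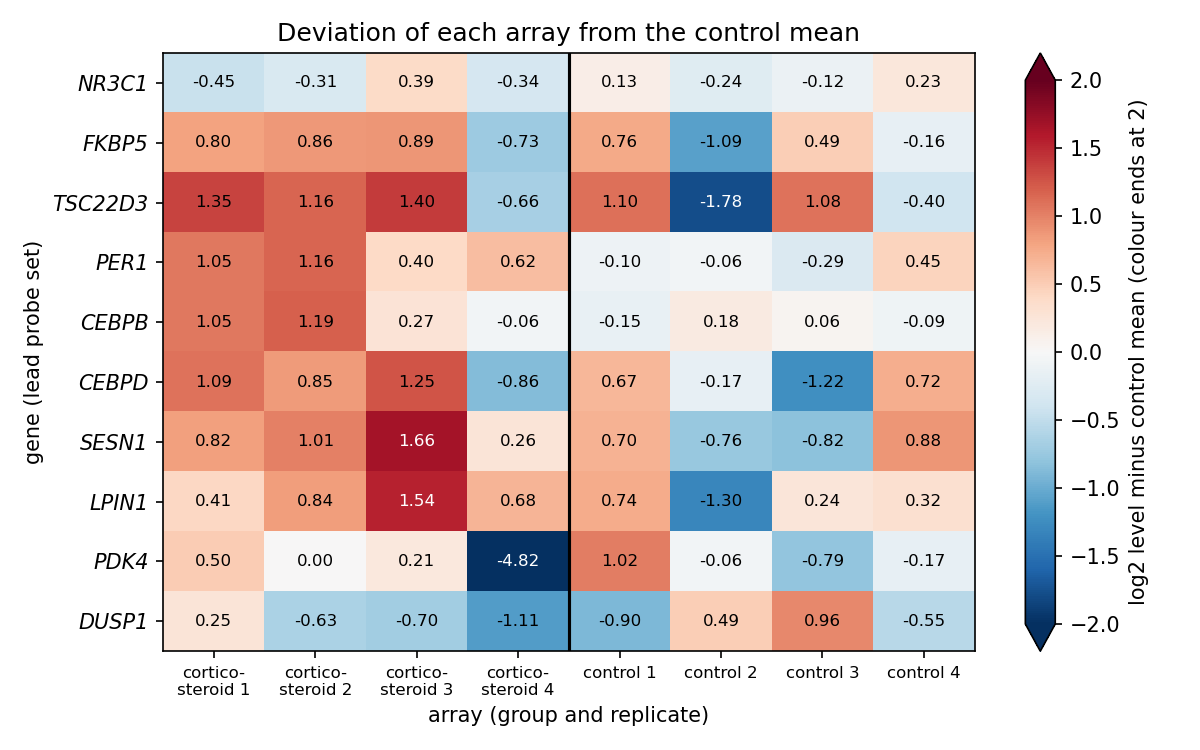
Log2 level of each lead probe set on each array minus the mean of the 4 control arrays, with genes in rows and arrays in columns, corticosteroid arrays to the left of the line. Corticosteroid replicates 1 to 3 are above the control mean for most targets, corticosteroid replicate 4 is above it for 3 of 9, and its PDK4 value is -4.82, beyond the ends of the colour scale.

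For 6 of the 9 targets a second probe set above the filter level was available, and the array patterns of the pairs resembled each other. After each probe set was centred on its own mean over the 8 arrays, the mean absolute difference between the pair was 0.096 for SESN1, 0.237 for LPIN1, 0.283 for FKBP5, 0.281 for CEBPD, 0.295 for PDK4 and 0.476 for TSC22D3. It was 0.0778 for the NR3C1 pair. Both probe sets lay on the same side of their means on only 5 of the 8 arrays for LPIN1, and on 7 or 8 for each other pair. In 3 of these pairs, those of FKBP5, LPIN1 and PDK4, one row was moved by the re-assignment and the other was not, so the unmoved row gives the pattern without it. With the rows as deposited, the differences of these 3 pairs were 3.26, 0.945 and 1.26. Because the order was found from the values, the smaller differences after re-assignment are not an independent check of it. The low values of FKBP5 and PDK4 on corticosteroid replicate 4 are present in the unmoved rows, at 8.18 and 7.27. TSC22D3 and CEBPD had only moved rows, and with the rows as deposited their pairs gave 0.443 and 0.361.

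**Figure D4:**
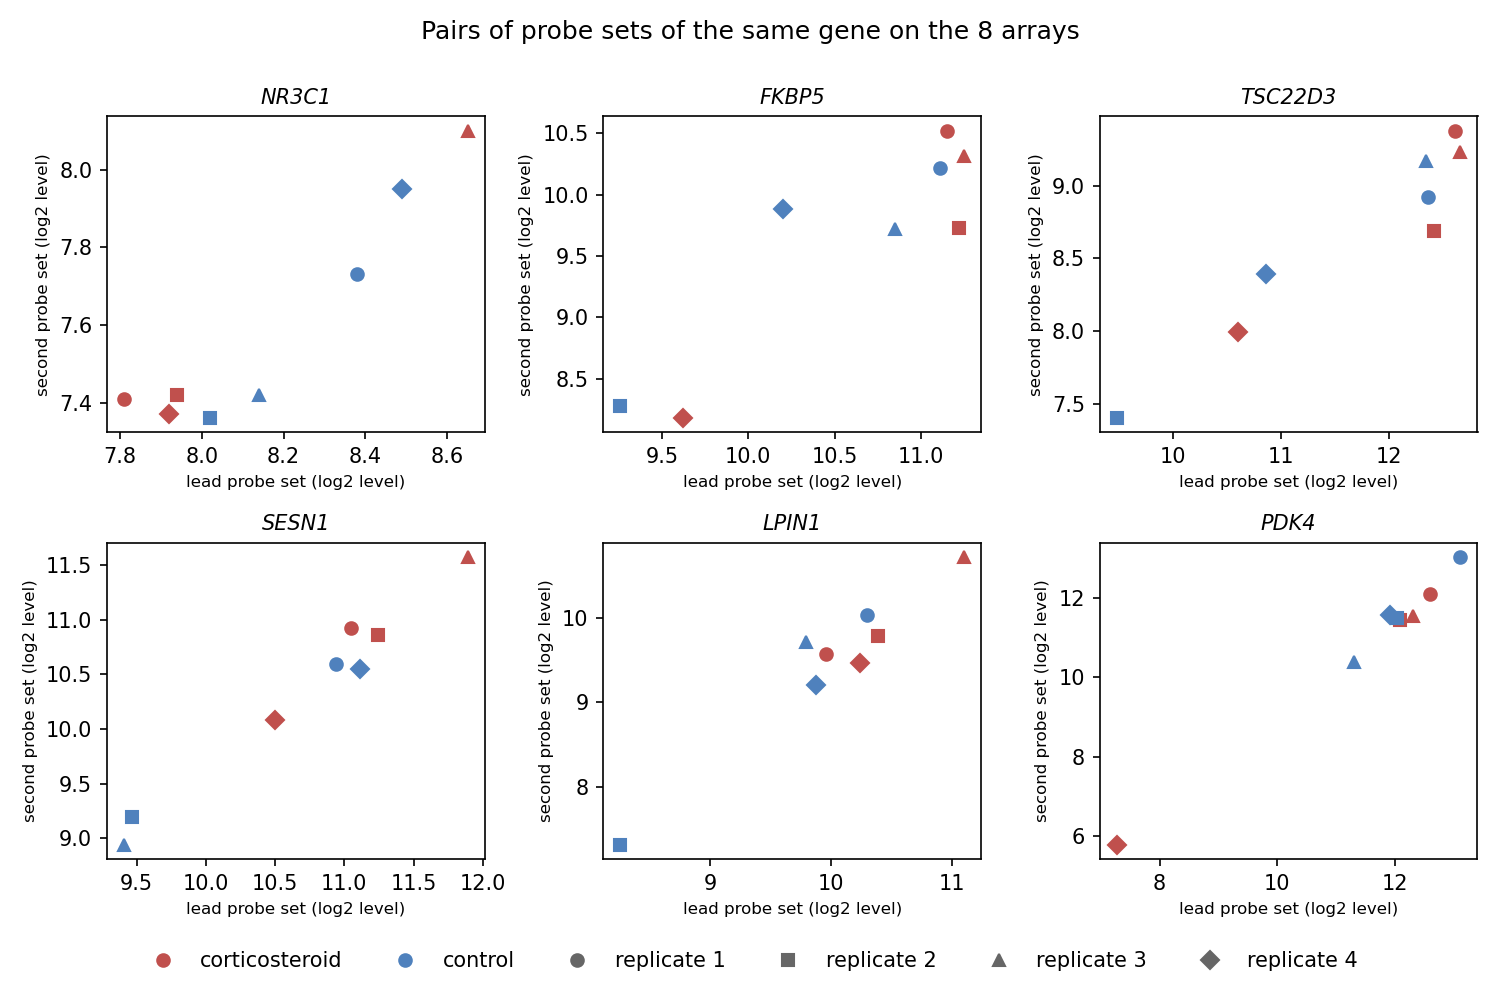
Log2 level of the second probe set against that of the lead probe set for NR3C1, FKBP5, TSC22D3, SESN1, LPIN1 and PDK4, each point being 1 array (red corticosteroid, blue control, shape for the replicate number). Points of each gene run from low to high together on both axes; for PDK4, corticosteroid replicate 4 lies at 7.27 and 5.78, apart from the other 7 arrays.

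Other genes that glucocorticoids are known to induce also had higher means more often than lower ones. Of 31 listed, 21 had a named probe set and 19 were tested, with 14 means higher (73.7%, against 54.0% of all genes tested) and 5 lower on corticosteroid arrays, a median difference of 0.24 (0.029 over all genes tested), and 0 past an unadjusted p under 0.05 in limma in either direction. The 4 of smallest p were MSTN (myostatin, which limits muscle growth) at 1.17 (SE 0.59), SLC2A4 (the insulin-responsive glucose transporter) at 0.53 (SE 0.29), the transcription factor KLF15 at 0.93 (SE 0.52) and the NF-kappaB inhibitor NFKBIA at -0.23 (SE 0.17). KLF15 read 9.55, 9.61, 9.43 and 7.93 on corticosteroid replicates 1 to 4, against 9.31, 7.46, 7.33 and 8.69 on control replicates 1 to 4. As with CEBPD and SESN1, control replicates 2 and 3 were the low controls. Corticosteroid replicate 4 was the lowest of its group for 10 of these 19 genes (52.6%, against 29.3% of all genes tested). It was the lowest of all 8 arrays for 6, where it was so for 18.6% of all genes tested. The same array was the highest of its group for 4 of the 19.

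Some of these genes, singled out after their values were seen, showed corticosteroid replicate 4 in the same low place. The ubiquitin ligase FBXO32 read 12.90, 12.46, 13.19 and 10.37 on corticosteroid replicates 1 to 4, against 12.64, 11.68, 10.76 and 12.87 on control replicates 1 to 4. The growth-arrest gene GADD45A read 12.42, 11.76, 12.31 and 9.38 on corticosteroid arrays, against 12.26, 10.47, 11.53 and 11.56 on control arrays. SGK1, a kinase also known as a glucocorticoid target, ran the other way, at 7.60, 7.86, 7.01 and 9.11 on corticosteroid arrays against 7.21, 9.37, 7.84 and 7.43 on control arrays. It was highest on corticosteroid replicate 4 and control replicate 2, the arrays on which FKBP5 and TSC22D3 were lowest.

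The listed glucocorticoid receptor chaperones and immunophilins had lower means for 10 of 14 genes tested, with a median difference of -0.31. Higher means made up 28.6% of this list and 54.0% of all genes tested. At an unadjusted p under 0.05 in limma, 5 were lower and 0 higher, and 0 passed after adjustment. The share lower at that level was 4.71% over all probe sets tested. The arrays were uneven: the 14 genes' median deviation from the control mean was 0.02, -0.14, -1.09 and -0.34 on corticosteroid replicates 1 to 4. HSPA4 differed by -1.01 (SE 0.34), the inducible HSP90 isoform HSP90AA1 by -0.73 (SE 0.27), its constitutive partner HSP90AB1 by -0.36 (SE 0.14) and HSPA8 by -0.65 (SE 0.25), each with an adjusted p of 0.479 or 0.482. FKBP4, the immunophilin that competes with FKBP5 for the receptor complex, differed by -0.31 (SE 0.29). Among corticosteroid arrays, the one most often lowest here was not the one most often lowest for the targets. Replicate 3 was the lowest of its group for 11 of the 14 genes (25.7% of all genes tested). Replicate 4 was so for 3 (29.3% of all genes tested). Among control arrays, replicate 2 was the lowest for 12 of the 14 (33.8% of all genes tested).

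Among steroid receptors, cortisol-converting enzymes and coregulators, 6 of 17 listed genes were tested, 4 with higher means (66.7%, against 54.0% of all genes tested) and 2 with lower ones. The coactivator NCOA2 differed by 0.85 (SE 0.29, adjusted p = 0.479 in limma) and was the 1 gene of this list at an unadjusted p under 0.05. HSD11B1, the enzyme that regenerates active cortisol from cortisone inside cells, read 8.82, 8.84, 9.59 and 8.85 on corticosteroid arrays and 8.81, 8.07, 9.54 and 9.36 on control arrays, a difference of 0.08 (SE 0.33). Of 18 listed symbols of genes that glucocorticoids are known to repress, 7 were tested. They had 6 lower means and 1 higher (14.3%, against 54.0% of all genes tested), with a median difference of -0.22. At an unadjusted p under 0.05 in limma there were 0. Control replicate 2 was the highest control for 5 of the 7, with a median deviation from the control mean of 0.76. That median was -0.34 to -0.22 on the other controls and -0.51 to -0.13 on corticosteroid arrays. The chemokine CCL2 read 6.53, 5.53, 5.91 and 5.81 on corticosteroid replicates 1 to 4, against 6.40, 11.61, 7.25 and 5.98 on control replicates 1 to 4. Its difference of -1.87 (SE 1.05) came with a single high control array, replicate 2, the one with the macrophage mean of 9.05. IL6, TNF and CXCL8 lay below the filter level. The 5 other clock genes tested all had higher means, by 0.03 to 0.64, where 54.0% of all genes tested did, and 0 reached an unadjusted p under 0.05 in limma.

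The genes with array profiles most like those of the receptor and its best-known targets were found by the mean absolute difference of centred log2 profiles over the 8 arrays, among 5405 other genes. For TSC22D3 the nearest gene was FKBP5, at 0.348, where the median over all genes was 1.02. By the same measure the second TSC22D3 probe set lay further from the lead one, at 0.476. The second FKBP5 probe set lay at 0.283 from its lead. The 0.348 between FKBP5 and TSC22D3 was thus below the distance within TSC22D3, but above that within FKBP5 and within each other tested pair. HMOX2, a heme oxygenase, followed at 0.425 and AGT, angiotensinogen, at 0.517, and LPIN1 ranked 16. For FKBP5 the nearest were ADIPOR2, an adiponectin receptor, at 0.242, CCDC6 at 0.281 and the transcription factor FOXO1 at 0.316, with TSC22D3 at rank 11. For NR3C1 they were CCDC25 at 0.116, TMEM181 at 0.13 and PTCD3 at 0.135. In all 10 members the profiles share the same 8 arrays, so 1 array that stands apart weighs on every such likeness.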

How the data were processed

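Total RNA from biceps femoris was hybridised to porcine Affymetrix arrays, 1 per sample, and groups were taken from the sample titles. The deposited values are log2 levels, and per the submitters' processing notes the authors used MAS5. The sources used here do not give the scaling between arrays. Array medians ran from 5.873 to 5.972, so no scaling was added. The re-ordering of the corticosteroid rows left 14610 of 23999 probe sets in place, with 0 tied IDs, and the correlation of group means across probe sets was 0.989 with it and 0.629 without it. Probe sets were named from the platform annotation (10069 with 1 symbol, 198 with several, 13732 with none). Reporter probe sets (64) were not used.

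The comparison used limma (version 3.58.1, under R 4.3.3, with lmFit and then eBayes with an intensity trend, Benjamini-Hochberg at 0.05) over the 14361 probe sets above the 40th percentile of mean log2 level. The fit was tested on simulated data. Other steps ran in Python 3.11.15 (numpy 2.4.6 and pandas 2.3.3). The members and lists were chosen with earlier results of these data known. Besides the members, up to 4 genes of smallest p per list were named and 3 most alike genes each for NR3C1, FKBP5 and TSC22D3. The replicate numbers were not used to pair the arrays in the main fit. Alternatives were a replicate block, quantile normalization, median centring, other filters, 16 added before log2, no trend, array weights, averaged probe sets, the rows as deposited, unmoved rows only and leaving out each array; leaving out corticosteroid replicate 4 with control replicate 2 was chosen after seeing the data. No sequences were used here.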

Additional observations from a re-analysis of the deposited data

Results flagged for a closer look

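In 7 of the 42 groups of 4 arrays checked over the member probe sets, 1 array lay far from the other 3, with a gap above the 95% critical value of Dixon's ratio. For normally distributed values chance flags about 1 in 20 groups, and probe sets of the same gene are not separate cases. The share of such groups over all probe sets was not computed, so the count cannot be called particular to these genes. Over all 5406 genes tested, corticosteroid replicate 4 was the lowest of its group for 29.3% and the highest for 1689 genes. All 7 flagged groups were of corticosteroid arrays. Replicate 4 was the low array for FKBP5 (9.62), TSC22D3 (10.60) and both PDK4 probe sets (7.27 and 5.78). Replicate 3 was the high array for the NR3C1 probe sets 1 and 2 (8.65 and 8.10). Replicate 2 was low for NR3C1 probe set 3, which lies below the filter level, at 4.75 against 4.88 to 4.90 on the others, a gap of little size.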

How the results depend on the processing

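The count of probe sets at an adjusted p under 0.05 was 0 in limma under the main setting. It was 5454 with the rows as deposited, and it ran from 0 to 1 when each array was left out, the 1 being AKR1CL1 without control replicate 3 (chosen after its value was seen). The count at an unadjusted p under 0.05 was 1363. It was 2160 with no filter, 6101 with the rows as deposited, 828 over the unmoved rows only, and 894 to 1777 when each array was left out, lowest when corticosteroid replicate 4 was dropped and highest when control replicate 1 was, with 903 without control replicate 3.

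Over the member probe sets, 369 of 396 alternative values kept their direction and their side of the threshold, 25 turned direction and 2 kept it but passed the threshold. An adjusted p under 0.05 in limma was reached by 8 member values, all with the rows as deposited. Of these, 2 kept their direction (PER1 and the second PDK4 probe set) and 6 turned it, at -6.36 for FKBP5, -4.75 and -4.79 for TSC22D3 and -4.00, -4.70 and 6.79 for CEBPD. The second LPIN1 probe set turned to -1.02 without passing. PER1, in an unmoved row, kept its difference of 0.81 (SE 0.23), and only its adjusted p changed, from 0.479 to 0.0184 in limma. The other passing values and the second LPIN1 probe set were in moved rows. As deposited, these hold corticosteroid values that the re-assignment gives to other probe sets. With the rows as deposited, 4 lead differences were positive, and the median over the 10 leads was -0.36. When each array was left out, the ranges that crossed 0 were -0.21 to 0.074, -0.17 to 0.033 and -0.073 to 0.096 for NR3C1 probe sets 2, 3 and 4, -0.26 to 0.66, -0.0029 to 0.63 and -0.0076 to 0.17 for the second probe sets of FKBP5, TSC22D3 and PER1, and -1.54 to 0.24 and -2.03 to 0.077 for PDK4. Without corticosteroid replicate 4 and control replicate 2 together, PDK4 gave 0.22 and 0.036, and 8 of 10 lead differences were positive. With the replicate number as a block, the count at an unadjusted p under 0.05 was 1332, 0 probe sets passed after adjustment and no member's call changed. Deviations of same-numbered arrays from their group means correlated at -0.246, 0.109, 0.105 and 0.0535 for replicates 1 to 4. These values cannot settle whether same-numbered arrays were paired. The cause of the changes when arrays were left out was not tested. With 4 arrays a group and a median SE of 0.219, small differences were not detectable.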
